A study of Rattus norvegicus with 28 samples.

Results

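Glycolysis genes were followed through spinal cord injury (SCI) in the rat, with attention to genes that encode alternative forms (isozymes) of the same enzyme. The genes were the hexokinases Hk1, Hk2 and Hk3, the phosphofructokinase gene Pfkp, the aldolases Aldoa and Aldoc, Pgk1, the enolase gene Eno2, and the lactate dehydrogenase genes Ldha and Ldhb. They were found by their gene names among the non-control spots of the array. All 10 names were present, as 10 of the 35469 features with a name of their own, and they were read by 11 of the 41012 probes on 29 spots. Hk1 had 2 probes, which were averaged and are also given singly, and every other gene had 1.

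Expression was measured in adult female Sprague Dawley rats, 4 animals for each of 7 groups, in a 1.5 cm piece of thoracic cord without dura mater. T0 animals are named sham in the sample labels and uninjured in the study. T1, T2, T4 and T8 animals received a 250 kdyn contusion at the eighth thoracic level and were taken 1, 2, 4 and 8 weeks later. T1_NPC animals received neural progenitor cells (NPCs) right after the same contusion and were taken at week 1, and T2_NPC animals received them 1 week after it and were taken at week 2. Per the labels, the NPCs had been grown from injured cords of adult rats. Per the study's methods, control injured animals were given medium without cells. Those methods give the immunosuppressant tacrolimus (FK-506), from the day before transplantation on, to all animals, and the labels do not say which groups without cells received it. In a piece of whole cord, fewer cells of a type and less RNA per cell cannot be told apart, and transplanted cells are part of the tissue measured.

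Glycolysis splits glucose into pyruvate and yields ATP without oxygen. Hexokinases phosphorylate glucose and so trap it in the cell, phosphofructokinase commits it to the pathway, aldolase cleaves the sugar, and phosphoglycerate kinase and enolase act in the later steps. Lactate dehydrogenase then converts pyruvate and lactate into each other: the A subunit is typical of tissues that release lactate and the B subunit of tissues that oxidise it. Hk1 is the main hexokinase of brain, Hk2 that of insulin-responsive tissue, and Hk3 is found mostly in myeloid cells. Aldoc is known as the aldolase of astrocytes and Eno2 as the enolase of neurons.

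The probes are DNA oligonucleotides of 60 bases. The sequences below are those of the Ldha, Ldhb and Hk2 probes and of the Hk1 probe that was not called at any time after injury. The Hk1 probe that was called lower, A_43_P11538, and the Hk3 probe are not shown. The Ldha probe, printed on 10 spots of each array, lies at chr1:97407674-97407733 on the plus strand (build rn4). The Ldhb probe spans chr4:180061921-180063949 and the Hk2 probe chr4:116926495-116928002, both on the minus strand, and since these spans are longer than the probes they cross an intron. The array annotation gives no position for either Hk1 probe. No exon annotation of rn4 was used here, and transcripts of near-identical gene copies, known for Ldha, Aldoa, Pgk1 and Gapdh, could share these signals.
Ldha probe: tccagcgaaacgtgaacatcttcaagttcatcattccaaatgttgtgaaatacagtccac
Ldhb probe: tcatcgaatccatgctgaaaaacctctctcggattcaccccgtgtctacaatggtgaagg
Hk2 probe: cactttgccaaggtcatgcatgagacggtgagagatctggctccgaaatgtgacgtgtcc
Hk1 probe A_44_P139536: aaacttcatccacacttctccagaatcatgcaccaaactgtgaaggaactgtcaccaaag

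The promoters of the lactate dehydrogenase pair are shown because both genes moved after injury, in opposite directions. The sequences are RefSeq's for build GRCr8, the 250 bases before the transcript start, at chr1:106507842-106508091 (plus strand) for Ldha and chr4:177177409-177177658 (minus strand) for Ldhb. Capitals mark the letters ACGTG or GCGTG on either strand, the core read by hypoxia-inducible factors.
Ldha promoter: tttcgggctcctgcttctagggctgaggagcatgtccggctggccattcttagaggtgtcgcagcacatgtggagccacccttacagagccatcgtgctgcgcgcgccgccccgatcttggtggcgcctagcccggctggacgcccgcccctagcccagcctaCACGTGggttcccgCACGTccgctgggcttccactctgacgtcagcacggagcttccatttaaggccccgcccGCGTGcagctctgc
Ldhb promoter: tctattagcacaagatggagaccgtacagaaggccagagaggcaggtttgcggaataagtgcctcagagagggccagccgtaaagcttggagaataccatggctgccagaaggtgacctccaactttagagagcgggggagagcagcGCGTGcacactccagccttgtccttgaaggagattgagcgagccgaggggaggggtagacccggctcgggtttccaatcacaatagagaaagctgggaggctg
The Ldha stretch held 4 matches, of which a pair overlaps in the palindrome CACGTG, and the Ldhb stretch held 1. Of 33469 rat promoters in the RefSeq set, 36.7% held at least 1 match and 2.44% held as many as Ldha. Promoters were listed for 9 of the members. The Aldoc promoter held 3 matches and the Hk2 promoter none of these letters. These matches are a description of the letters, and the motif was chosen with the expression values known.

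The values are log2 signals after quantile normalization by the authors, and 74.5% to 82.7% of non-control spots were well above background on an array. Every spot of the 10 genes passed that mark on each of the 28 arrays and none was saturated, so no value is a bound. For 16 arrays the scanner output that matches a table column was deposited under a different sample name. Groups here follow the table's columns, which carry sample names, and the other reading, under which no member was called in any of the comparisons made, is given with the limits. Slides and scan sessions are those of the scanner output that matches each column. Time-course samples lay on 5 slides scanned in 2 sessions, T1_NPC on 1 slide and T2_NPC on another, both in a session of their own. Transplantation therefore cannot be told apart from slide and session. As cord tissue should, T0 gave high neuronal and oligodendrocyte markers, with list means of 12.51 to 12.90 over 13 genes and 14.01 to 14.23 over 10 on the log2 scale. Skeletal muscle markers had list means of 6.32 to 6.96 over all groups.

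Injury changed most of the 10 genes. In the linear model (limma, Benjamini-Hochberg over all features, called at an adjusted p under 0.05), 8 were called at T1, 3 higher and 5 lower than T0. Of all features, 44.1% were called at T1, 19.1% higher and 25.1% lower. The members' counts were 8 at T2 (40.0% of all features), 7 at T4 (38.5%) and 5 at T8 (39.7%), so the share at T8 was near that of all features. The same genes made up the 3 called higher at each time: Hk2, Hk3 and Ldha. Hk1, Pfkp, Aldoc, Eno2 and Ldhb were called lower at T1 and T2, all of these but Hk1 at T4, and Pfkp and Eno2 at T8. Of all features, 17.7% were called higher and 22.2% lower at T2. The shares were 17.5% and 21.0% for T4, then 18.2% and 21.5% for T8. The median change of the 10 genes was -0.24, -0.44, -0.16 and -0.14 at T1, T2, T4 and T8, beside -0.10, -0.05, -0.06 and -0.04 for all features. Groups did not overlap with T0 for 7, 8, 6 and 5 members, and for 41.1%, 37.0%, 37.5% and 38.6% of all features. All members called against T0 had the same direction within both scan sessions. The first session held only 1 T1 sample and 1 T4 sample, beside 2 of T0.

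**Figure D1:**
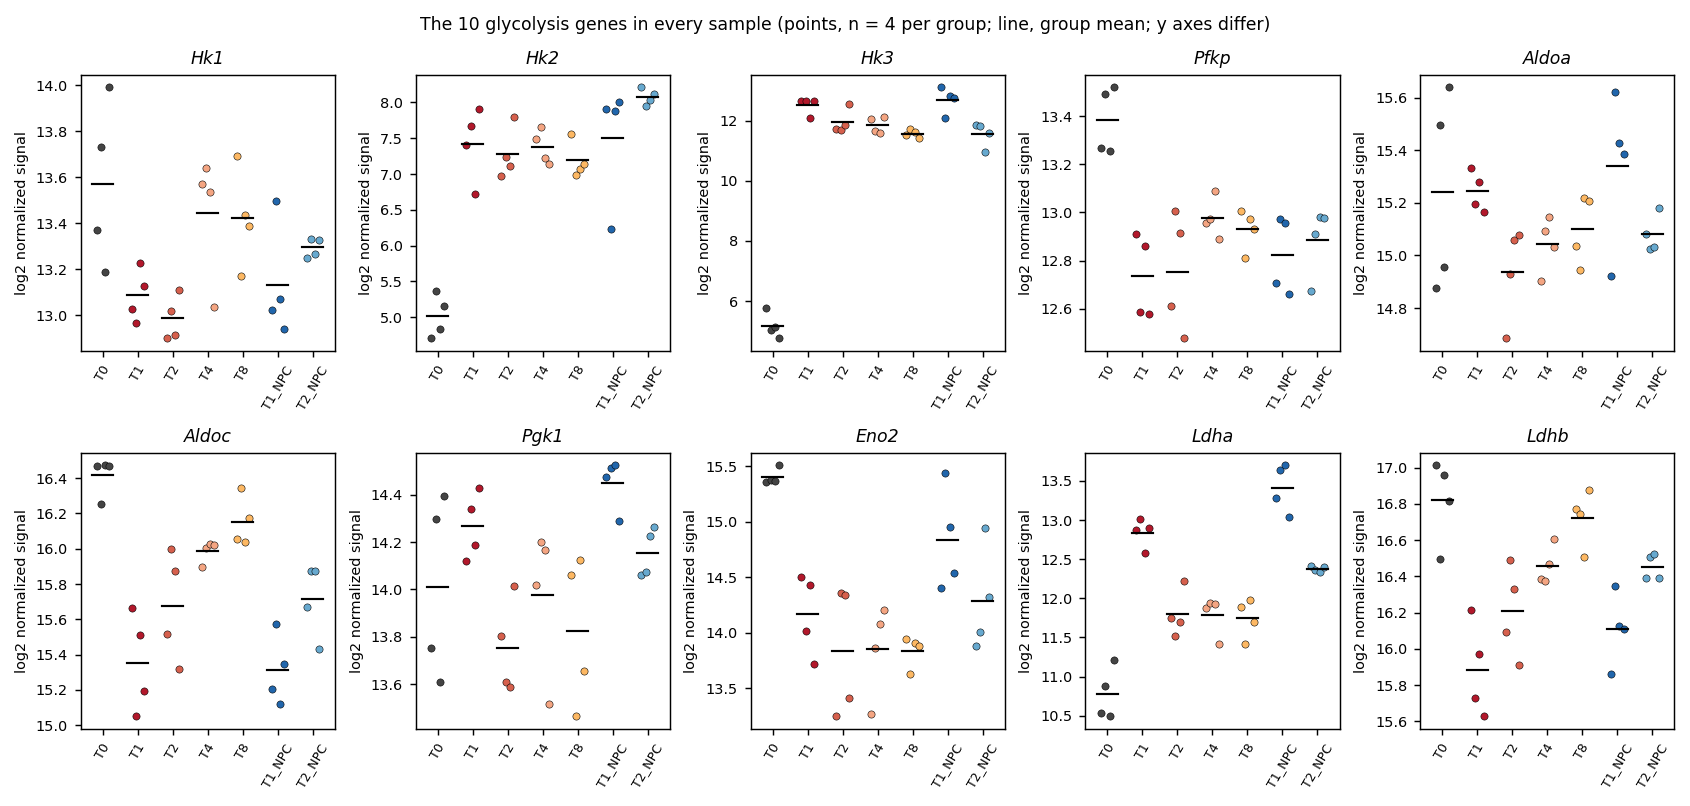
The log2 normalized signal of each glycolysis gene (y axis, scaled separately) in the 7 groups (x axis), with a point per sample and a line at the mean of 4. Hk2, Hk3 and Ldha lay above T0 in every injured sample, and Eno2 lay below T0 in the T1 to T8 samples.

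The hexokinases parted in direction. Hk3, the myeloid hexokinase, read 5.76, 5.05, 5.13 and 4.76 in the T0 samples on the log2 scale, and 12.65, 12.67, 12.09 and 12.68 in T1. The T1 group thus lay far above T0 without overlap, by 7.34 ± 0.24 (SE) or 163-fold (adjusted p = 1.26e-16, limma), and 3 of its samples fell within a narrow band with replicate 3 below them. The rise over T0 was 6.79 at T2, 6.69 at T4 and 6.40 at T8, or 84.3-fold at the last. The lowest signals still well above background averaged 4.03 over the T0 arrays. The T0 values of Hk3 thus lay near the floor, and these folds rest on that low baseline. All 13 microglia and macrophage markers were called higher at T1 too, and their list mean went from 9.07 to 9.33 in T0 to 12.36 to 12.83 in T1 and 11.77 to 12.09 in T8. Among them, Cd68 rose by 7.05 at T1. Cd163 was not well above background on 3 T0 arrays nor Cybb on 2. The part of these cells in the Hk3 result was not tested.

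Hk2 read 4.71, 5.37, 4.84 and 5.16 in T0 and 7.40, 7.67, 6.72 and 7.90 in T1. All injured samples lay above all T0 samples. The T0 values of Hk2, like those of Hk3, lay near the floor. The rise was 2.40 ± 0.30 (SE), 5.29-fold, at T1 (adjusted p = 6.27e-07, limma), 2.26 at T2, 2.36 at T4 and 2.17 at T8. None of the steps between consecutive times was called for Hk2.

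Hk1, the neural form, fell at T1 by 0.48 ± 0.16 (adjusted p = 0.0154) and at T2 by 0.58 ± 0.16 (adjusted p = 0.00451, limma), as the mean of its 2 probes. At T4 and T8 the differences from T0 were -0.13 (95% interval -0.45 to 0.20) and -0.15 (-0.48 to 0.18). The 2 probes did not read alike. Probe A_43_P11538 read 15.53, 15.59, 15.41 and 15.61 in T0, 14.80, 14.52, 14.97 and 14.59 in T1, and 15.28, 15.11, 14.99 and 15.15 in T8. Fitted alone it was called lower in each of the T1, T2, T4 and T8 groups, by 0.82, 0.68, 0.39 and 0.40. Probe A_44_P139536 read 11.21, 11.87, 10.97 and 12.37 in T0, a range that held all of its injured samples but 1, and was not called at any time (changes -0.15, -0.49, 0.14 and 0.10). Its low T0 samples were those of the first scan session and its high ones those of the second. The call for Hk1 at T1 therefore rests on 1 probe, and it was lost without T0 replicate 4 (adjusted p = 0.0803, limma).

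**Figure D2:**
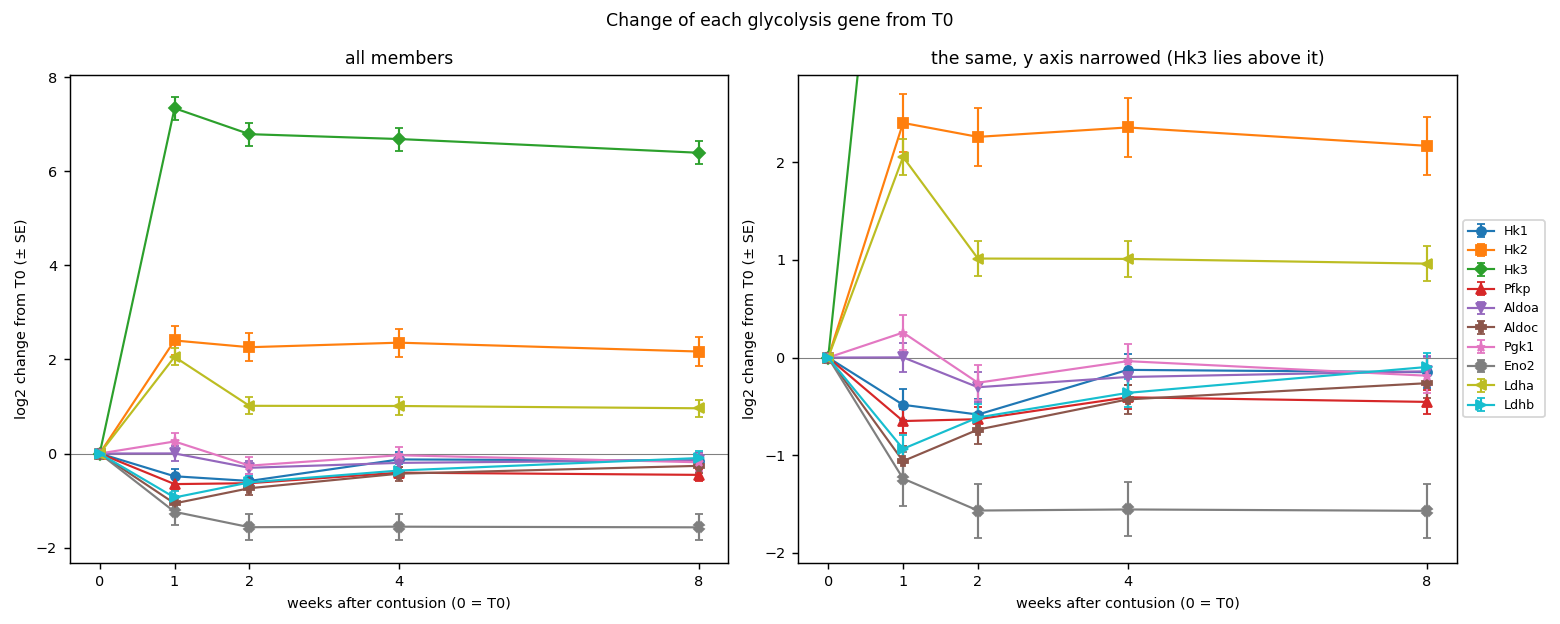
Change of each gene from T0 (y axis, log2 scale, bars are the SE of the linear model) against weeks after contusion (x axis), in full on the left and without the Hk3 range on the right. Ldha dropped from 2.06 at week 1 to 1.01 at week 2, Aldoc and Ldhb came back towards 0, and Eno2 stayed near -1.57 from week 2 on.

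Pfkp encodes the platelet type of phosphofructokinase, which is also expressed in brain. It read 13.27, 13.49, 13.25 and 13.52 in T0 and 12.91, 12.59, 12.86 and 12.58 in T1, without overlap. It fell by 0.65 ± 0.12 (SE) at T1 (adjusted p = 0.00011, limma), with falls of 0.63, 0.41 and 0.45 in T2, T4 and T8. No group overlapped with T0.

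The aldolases differed from each other. Aldoc, the astrocytic form, read 16.47, 16.26, 16.47 and 16.47 in T0, where replicate 2 stood below 3 samples that were nearly equal. In T1 it read 15.67, 15.05, 15.51 and 15.19. It fell by 1.06 ± 0.15 (SE), 2.09-fold lower, at T1 (adjusted p = 3.72e-06, limma), 0.74 at T2 and 0.43 at T4 (adjusted p = 0.0264). The T8 difference was -0.26 (95% interval -0.57 to 0.05). The T4 call was lost without T0 replicate 1, 3 or 4 or T4 replicate 1 (adjusted p between 0.0537 and 0.0681, limma). Of 9 astrocyte markers, 4 were called lower and 1 higher at T1 (Gfap, the filament protein of reactive astrocytes, by 0.86), and 1 lower and 1 higher at T8. The list mean ran from 12.88 to 13.11 in T0, from 12.52 to 12.75 in T1 and from 13.11 to 13.30 in T8, and its part in the Aldoc result was not tested.

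Aldoa, the general and muscle form, was not called in any comparison. It read 14.88, 15.49, 14.96 and 15.64 in T0 and 15.33, 15.19, 15.28 and 15.17 in T1, so that the T1 samples lay inside the T0 range. The difference was 0.00 (95% interval -0.31 to 0.32) at T1 and -0.30 (-0.62 to 0.01) at T2. Within sessions its direction turned. At T1 it was 0.42 above T0 in the first session, which held 1 T1 sample, and 0.35 below in the second (differences 0.42 and -0.35). The T0 means of the 2 sessions were 14.92 and 15.57.

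Pgk1, the phosphoglycerate kinase of all tissues, showed the same split of T0, with 13.75 and 13.61 in the first session against 14.30 and 14.39 in the second. T1 samples read 14.12, 14.34, 14.19 and 14.43 and T2 samples 13.81, 13.61, 13.59 and 14.01. It was not called against T0 at any time (differences 0.26, -0.26, -0.04 and -0.19). From T1 to T2 it went down by 0.51 without overlap of the groups, with an adjusted p of 0.164 (limma). With scan session as a block among the time-course samples, that step was called (-0.40, adjusted p = 0.0332, limma), as was T2 against T0 (-0.26, adjusted p = 0.0399).

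**Figure D3:**
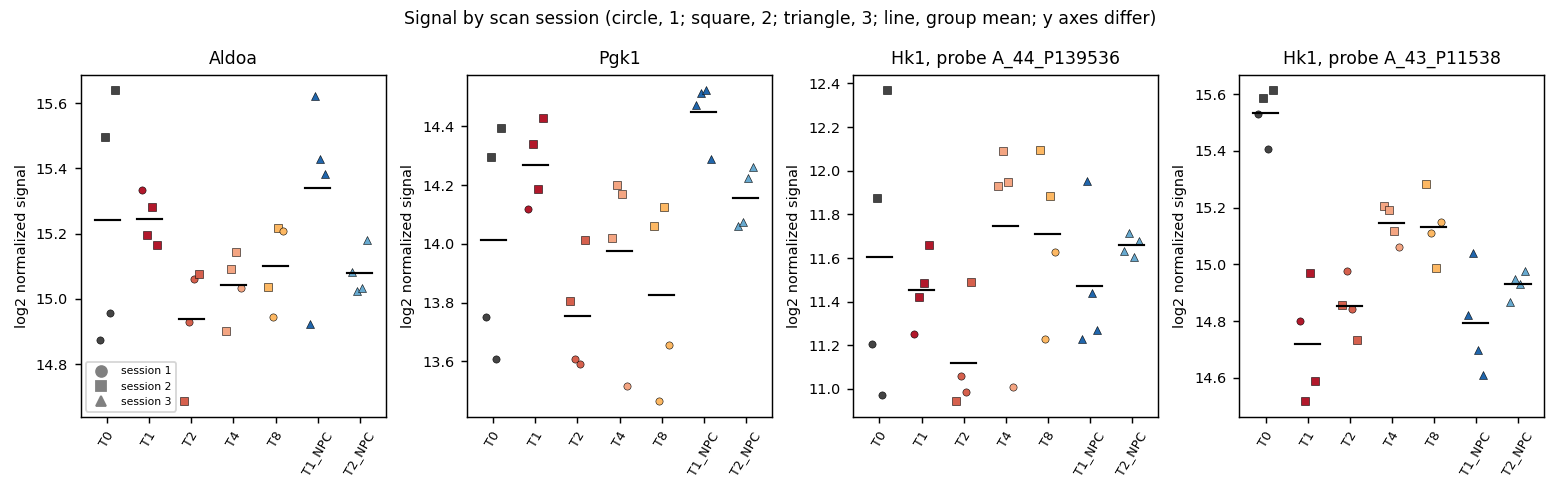
Log2 normalized signal (y axis, scaled separately) of Aldoa, Pgk1 and the 2 Hk1 probes in the 7 groups (x axis), a point per sample with its scan session as the symbol and a line at the group mean. In T0, Aldoa, Pgk1 and probe A_44_P139536 split by session. The T0 samples of probe A_43_P11538 lay closer together, between 15.41 and 15.61. There too the second session (15.59 and 15.61) lay above the first (15.53 and 15.41).

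Eno2, the neuronal enolase, read 15.36, 15.38, 15.37 and 15.51 in T0, a narrow band with replicate 4 on top. In T1 it read 14.51, 14.02, 14.43 and 13.71, and in T8 13.94, 13.62, 13.90 and 13.88, all below T0. It fell by 1.24 ± 0.28 (SE), 2.36-fold lower, at T1 (adjusted p = 0.000729, limma), and then by 1.57, 1.56 and 1.57 in T2, T4 and T8, 2.97-fold lower at the last. T2 fell into a low pair (13.24 and 13.41, second session) and a high pair (14.36 and 14.34, first session). Of the 13 neuronal markers found, 12 were called lower at T1, 13 at T2 and T4 and 12 at T8, and their list mean went from 12.51 to 12.90 in T0 to 10.71 to 11.60 in T1. The part of neurons in the Eno2 result was not tested.

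The transcripts of the 2 lactate dehydrogenase subunits moved in opposite directions at T1 and T2. The subunits themselves were not measured, and the part of cell types was not tested. Ldha read 10.54, 10.88, 10.49 and 11.21 in T0, 12.87, 13.01, 12.57 and 12.89 in T1, and 11.75, 11.52, 11.70 and 12.22 in T2. Its T1 samples stood above both other groups without overlap. It rose by 2.06 ± 0.18 (SE), 4.16-fold, at T1 (adjusted p = 3.17e-09, limma), and was 1.01, 1.01 and 0.96 above T0 at T2, T4 and T8, about 2.02-fold at T2. Ldhb read 17.01, 16.50, 16.96 and 16.81 in T0 and 16.22, 15.73, 15.97 and 15.63 in T1. It fell by 0.93 ± 0.14, 1.91-fold lower, at T1 (adjusted p = 1.07e-05, limma), 0.61 at T2 and 0.36 at T4. The T4 value was just called (adjusted p = 0.0495), its groups overlapped, and it was lost without any 1 of 6 samples and under 7 other settings, given with the limits. At T8 it read 16.77, 16.74, 16.51 and 16.87, and the difference from T0 was -0.10 (95% interval -0.39 to 0.20).

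Differences between 2 isozymes on the same array were then compared between groups. Since probes bind differently, such a difference shows an unequal change and not which isozyme is more abundant. The 7 pairs were tested in 6 comparisons, 42 exact permutation tests in all (two-sided, 4 against 4), of which 24 had groups without overlap. The smallest p that 4 against 4 can give is 0.0286, which became 0.05 after adjustment over the 42, so none passed a threshold below 0.05. No share of overlap was computed over all possible pairs. Ldha minus Ldhb was -6.48, -5.62, -6.47 and -5.60 in T0, -3.35, -2.71, -3.40 and -2.73 in T1, and -4.89, -5.32, -4.53 and -5.18 in T8. The injured groups stood apart from T0 at all 4 times (exact permutation p = 0.0286 each), by 2.99, 1.63, 1.37 and 1.06, so the ratio was 7.95-fold that of T0 at T1 and 2.08-fold at T8. T0 itself split by scan session for this pair, with a mean of -6.47 in the first and -5.61 in the second. Within the first scan session, with 1 T1 sample, the T1 change was 3.12 and within the second 2.66. The T8 change was 1.22 within the first and 0.90 within the second.

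Hk2 minus Hk1 moved by 2.89 at T1 and 2.32 at T8, and Hk3 minus Hk1 by 7.83 and 6.55, without overlap at any time. Eno2 was set against Eno1, the enolase of most tissues, which was not itself called at any time after injury. Their difference was -0.39, -0.65, -0.32 and -0.65 in T0 and -2.07, -2.25, -2.28 and -2.03 in T8, a change of -1.65 with groups apart. Aldoa minus Aldoc rose by 1.06 at T1 only without overlap (exact permutation p = 0.0286). At T2, T4 and T8 it differed by 0.43, 0.23 and 0.12 with overlapping groups, and at T4 and T8 its sign differed between the 2 sessions. Pfkp minus Pfkm, the muscle type, was 0.78, 0.70 and 0.65 above T0 at T1, T2 and T4 without overlap, and 0.48 above it at T8 with overlapping groups (exact permutation p = 0.0571). Both genes fell at T1, Pfkm by 1.43 and Pfkp by 0.65. Pfkp minus Pfkl, the liver type, changed by -0.93 at T1 and -0.83 at T2 without overlap, and by -0.34 at T4 and -0.62 at T8 with it.

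**Figure D4:**
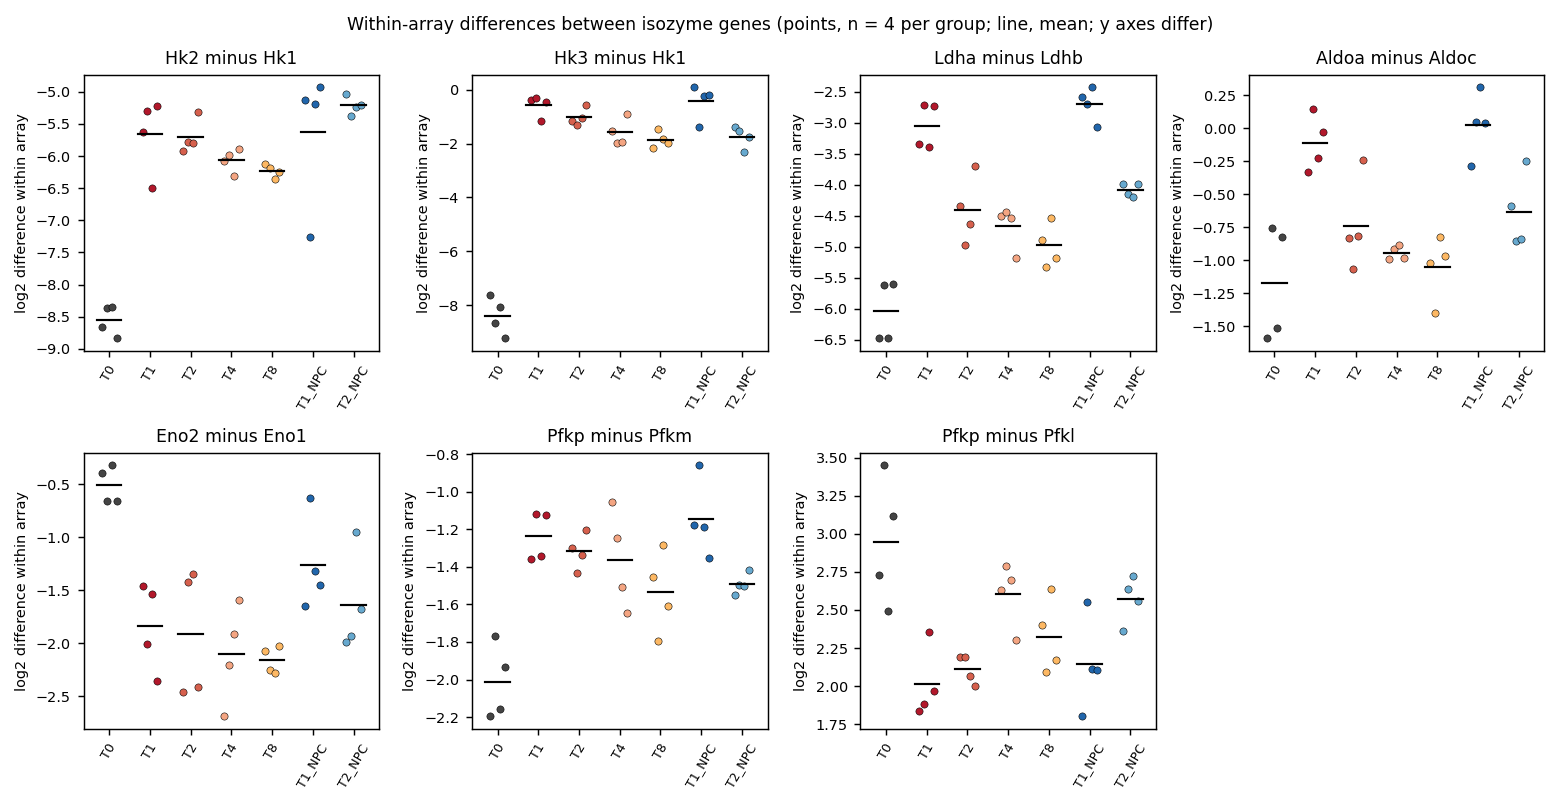
Differences between the log2 signals of 2 isozyme genes on the same array (y axis, scaled separately) in the 7 groups (x axis), a point per sample and a line at the mean of 4. The Ldha minus Ldhb points of T0 lay between -6.48 and -5.60 and those of T1 between -3.40 and -2.71.

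Changes between consecutive times were few. From T1 to T2, 1 member was called: Ldha, which fell by 1.04 ± 0.18 (adjusted p = 0.00346, limma), beside 1.48% of all features. For 3 members the T1 and T2 groups did not overlap (Ldha, Pgk1 and Aldoa), beside 7.73% of all features. Fitted on the compared groups alone, the Ldha step had an adjusted p of 0.0605 (limma). No member was called from T2 to T4 or from T4 to T8, where limma called 0.0761% (0.0507% higher and 0.0254% lower) and 0.0902% (0.0874% and 0.00282%) of all features. At an unadjusted p under 0.05, 1 member passed from T2 to T4 (Hk1, 0.46 higher) and 0 from T4 to T8. Aldoc was 0.17 higher in T8 than T4, with groups that did not overlap (adjusted p = 1, limma). Groups were apart for 0 members from T2 to T4, beside 5.36% of all features, and for 1 from T4 to T8, beside 3.91%.

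After NPC transplantation, Ldha was the 1 member called in each comparison, beside 11.9% of all features at week 1 (5.45% higher and 6.46% lower) and 9.47% at week 2 (4.62% and 4.85%). T1_NPC samples read 13.29, 13.64, 13.70 and 13.03, all above the T1 samples, and the difference was 0.58 ± 0.18 (SE), 1.49-fold (adjusted p = 0.0398, limma). T2_NPC samples read 12.41, 12.36, 12.33 and 12.40, a narrow band above the T2 samples, and the difference was again 0.58 ± 0.18 (adjusted p = 0.0454). Both calls lie across slides and were lost under other settings. With slide as a random block the adjusted p was 0.0558 at week 1 and 0.092 at week 2 (limma), and leaving out single samples ended the first call for 5 of 8 samples and the second for 7 of 8. Groups did not overlap for 1 member at week 1 (16.3% of all features) and for 4 at week 2, Hk1, Hk2, Pgk1 and Ldha (19.4%).

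Hk2 read 8.21, 7.96, 8.04 and 8.12 in T2_NPC, above all T2 samples, and the difference of 0.80 (95% interval 0.18 to 1.42) had an adjusted p of 0.0937 (limma). In T1_NPC it read 7.90, 6.23, 7.88 and 8.01, with replicate 2 far below the other samples, and the difference from T1 was 0.08 (-0.54 to 0.70). Leaving out single samples moved it between -0.15 (without T1 replicate 3) and 0.51 (without T1_NPC replicate 2), and it was not called in any of these fits. Eno2 read 14.41, 15.44, 14.96 and 14.54 in T1_NPC, 0.67 above T1 with overlapping groups (adjusted p = 0.118, limma), and Pgk1 was 0.40 higher in T2_NPC than in T2 (adjusted p = 0.164). The differences for Aldoc were -0.04 (-0.35 to 0.27) and 0.04 (-0.27 to 0.35), and for Pfkp 0.09 (-0.16 to 0.34) and 0.13 (-0.12 to 0.38). The difference between the 2 transplantation effects was not called for any member (0 at an unadjusted p under 0.05), beside 0.299% of all features (limma). For Ldha it was -0.00 ± 0.26. No isozyme pair stood apart between T1_NPC and T1. Between T2_NPC and T2, Hk3 minus Hk1 (-0.72) and Pfkp minus Pfkl (0.46) did (exact permutation p = 0.0286 each, adjusted p = 0.05).

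**Figure D5:**
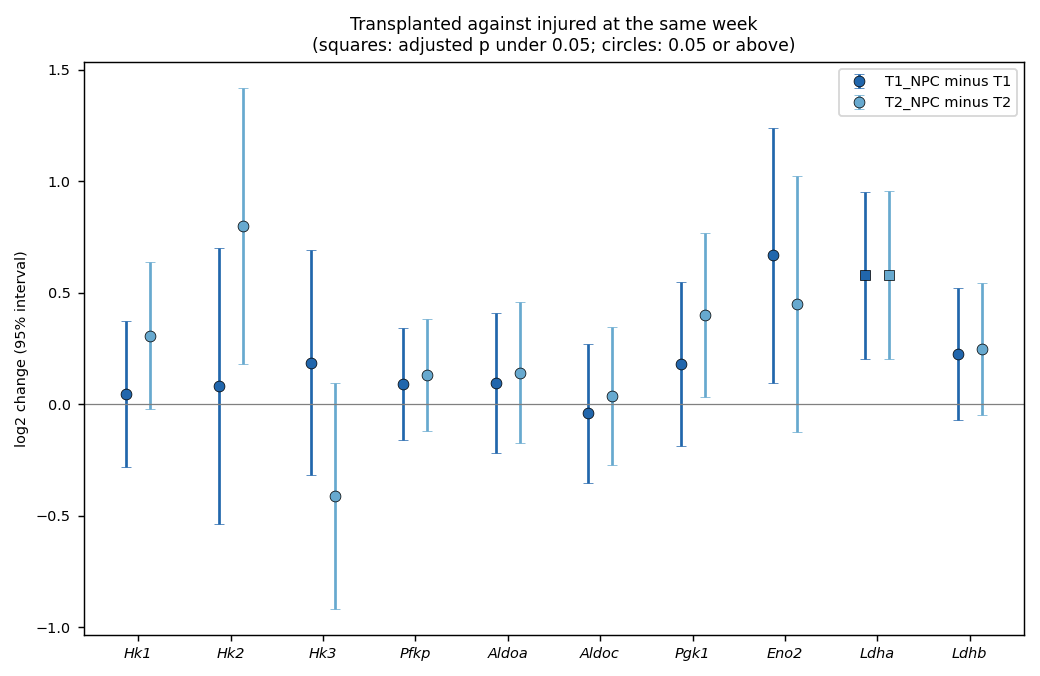
Difference between transplanted and injured animals of the same week (y axis, log2 scale, bars are 95% intervals of the linear model) for each gene (x axis), with squares for called values. Only the Ldha intervals, 0.20 to 0.95 at both times, belonged to called values.

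The other enzymes of the pathway, a list of 18 found on the array, gave falls and no rises against T0: 6 were called lower in T1 and in T2, 5 in T4 and in T8, and 0 higher in any of them. Their median change was -0.33, -0.24, -0.42 and -0.17. Pfkm, the muscle-type phosphofructokinase, read 15.46, 15.26, 15.41 and 15.46 in T0 and 14.27, 13.70, 14.20 and 13.70 in T1, and was 1.43, 1.33, 1.06 and 0.93 below T0 over the 4 times (differences -1.43, -1.33, -1.06 and -0.93; called at each, limma). Tpi1 (triose phosphate isomerase), Gapdh and Pgam1 (phosphoglycerate mutase) were also called lower at all 4 times, by 0.81, 0.48 and 0.80 at T8. Gpi, which converts glucose 6-phosphate to fructose 6-phosphate, fell by 0.57 at T2, 0.56 at T4 and 0.48 at T8. Gapdhs and Eno3 fell by 0.69 and 0.37 at T1 only. Eno1 and Pkm, listed as Pkm2 and coding for the muscle pyruvate kinase, were not called at any time (at T1, 0.09 and 0.28).

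At week 1 after transplantation, 3 of these 18 were called higher and 1 lower, between samples of different slides and sessions. Tpi1 read 13.83, 13.62, 13.90 and 13.72 in T1_NPC against 13.35, 13.31, 13.27 and 13.29 in T1, a difference of 0.46 (adjusted p = 0.00682, limma). Gpi was 0.31 higher (adjusted p = 0.0499) and Gapdhs, the sperm form of Gapdh, 2.11 higher (adjusted p = 2.46e-05), from 3.51 to 4.58 in T1 to 5.84 to 6.48 in T1_NPC. Pgam2, the muscle mutase, was 0.78 lower in T1_NPC (difference -0.78, adjusted p = 0.00327, limma). On 1 of the 28 arrays Gapdhs was not well above background. The lowest signals still well above background averaged 3.68 over the T1 arrays, so its T1 values lay near the floor. At week 2, limma called 0 of the 18, and 3 had an unadjusted p under 0.05.

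Of 10 transporters of glucose and lactate, 3 were called higher and 1 lower at T1, beside 19.1% and 25.1% of all features, and 5 and 1 at T8, beside 18.2% and 21.5%. With so few genes these counts set no difference between the list and all features. Slc16a3 (MCT4), a lactate exporter of glycolytic cells, read 10.13, 9.93, 10.23 and 9.83 in T0 and 13.65, 13.42, 12.91 and 12.84 in T1, and rose by 3.18 ± 0.53 (adjusted p = 3.28e-05, limma). In T4 it split into 9.97 and 10.11 against 12.71 and 12.52 and was not called. Slc16a7 (MCT2), a high-affinity monocarboxylate carrier, rose by 1.94, 2.12, 1.72 and 1.67, and Slc2a5 (GLUT5), a fructose carrier known from microglia, by 1.73, 1.57, 1.27 and 1.14. Slc16a1 (MCT1) fell by 0.43 at T1 and rose by 0.31 at T4 and 0.40 at T8, with a called step of 0.61 between T1 and T2 (adjusted p = 0.00845, limma). Slc2a3 (GLUT3), the neuronal glucose carrier, fell by 0.85, 0.90 and 0.83 at T2, T4 and T8. Slc2a1 (GLUT1) and Bsg, the chaperone of the monocarboxylate carriers, were not called at any time.

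Of 12 regulators found on the array, 3 were called higher and 2 lower at T1, and 2 and 2 at T8, shares near those of all features. Pfkfb3, which makes an activator of phosphofructokinase, rose by 0.60, 0.55, 0.57 and 0.67 at the 4 times. Pdk1, a kinase that switches off pyruvate dehydrogenase, read 8.43, 8.72, 8.36 and 8.70 in T0 and 9.55, 9.55, 9.05 and 9.94 in T1. It rose by 0.97 at T1 (adjusted p = 1.62e-05, limma), fell by 0.61 from T1 to T2 (adjusted p = 0.0458), and was called higher than T0 at T4 and T8 but not at T2. Pfkfb1 rose by 0.44 at T1 and Pfkfb4 by 1.86 at T4. Pdk2 fell by 0.59 at T1, Pdk3 by 0.31 at T4 and 0.41 at T8. Egln3, an oxygen sensor that marks hypoxia-inducible factors for decay, fell by 0.57, 0.75, 0.84 and 0.94. The transcripts of the factors themselves, Hif1a and Epas1, were not called at any time (at T1, 0.12 and -0.17). After transplantation Egln1, another such sensor, was 0.48 higher in T1_NPC than in T1 (adjusted p = 0.0264).

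Neighbouring pathways gave these counts, to be read against the same shares of all features. Of 7 genes of the pyruvate dehydrogenase complex and its phosphatases, 4 were called lower and 1 higher at T1, and 6 lower at T8, with the largest T1 fall in Pdha1 (0.74) and the rise in Pdhx (0.36). Of 7 pentose phosphate genes, 5 were called higher and 0 lower at T1 and again at T8, led by H6pd (1.14 at T1). Of 13 glycogen genes, 2 rose and 5 fell at T1, and 3 rose and 2 fell at T8. Pygl, the liver glycogen phosphorylase, rose by 3.15 and Pygm, the muscle form, fell by 1.50 at T1 (differences 3.15 and -1.50). Of 7 gluconeogenesis genes, 1 rose (Pck2, 0.63) and 2 fell at T1, led by Fbp2 at -0.95, while 2 rose (Fbp1, 0.60, and Pck2, 0.55) and 0 fell at T8. The median change of that list was -0.26 at T1 and 0.40 at T8. The T8 median is the change of G6pc itself, with means of 2.98 in T0 and 3.38 in T8 (adjusted p = 0.214, limma). On no array was every spot of G6pc well above background, so this median does not show a rise of the whole list. Of the other cell types, all 8 fibroblast markers were called higher at T1, with list means from 8.90 to 9.55 in T0 and 13.29 to 14.12 in T1. Endothelial markers gave 3 higher and 2 lower of 8, and of 4 red blood cell markers limma called 0 at T1, where 1 had an unadjusted p under 0.05.

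Genes with changes most like those of each member were sought among 10328 named features with signal well above background on every array. Likeness was the root mean square difference of the 6 group changes from T0, and it describes these groups only. The nearest to Hk3 were Cd68 (0.30), Ms4a4a (0.45) and Ifitm1 (0.53). Cd68, a lysosomal protein of phagocytes, changed by 7.05, 6.81, 6.57, 6.45, 7.06 and 6.85 in T1, T2, T4, T8, T1_NPC and T2_NPC. The nearest to Hk2 were Hexa, Axl and Tmem176b (0.16 to 0.19), and to Ldha Serpinb1a, Furin and Ung (0.19 to 0.23). Disp2, Uchl1 and Nsf came nearest to Eno2 (0.06 to 0.10), and Gcat, Clybl and Ccdc113 to Aldoc (0.06 to 0.09). For Ldhb these were Hoxc6, Rcn2 and Wdr35 (0.09 to 0.12), for Hk1 Palm, Cobll1 and Dmwd, for Pfkp Pebp1, Ccndbp1 and Atp6v0e2, for Aldoa Mlst8, Agk and Dusp7, and for Pgk1 Got2, Gsk3b and Numbl.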

How the data were processed

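RNA of 28 spinal cord samples was hybridized by the authors, labelled with 1 dye, to Agilent whole rat genome arrays. Per the file headers, Agilent Feature Extraction located spots, subtracted background and removed trends, which gave the deposited intensity values. The authors then deposited a table of log2 values, quantile normalized between arrays, which was used here. Its reference distribution is unknown. Slide, scan session and background flags were taken from the output whose rank order equals that of the column (rank correlation 1, the next best reaching 0.993), which in 16 cases carried another sample's name.

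Averaging the 43379 spots that are not controls gave 41012 probes, and averaging these by gene name 35469 features. One mean per group was fitted to all samples (R 4.3.3, limma 3.58.1), with empirical Bayes moderation (2.26 prior degrees of freedom) and Benjamini-Hochberg adjustment. Isozyme differences were compared by exact permutation tests. Figures used matplotlib. The scripts were tested on simulated data. Named are the 10 members with all their probes, genes of the lists of other enzymes, transport and regulators, the largest called rise and fall of other lists with a few genes beside them, and the 3 features most like each member. The members, lists and tests were chosen with earlier results of these data known. Of the lists, Hkdc1, Pgd, Tigar, Rbfox3 and Hba-a2 were not found by name, and some genes are not reported here. The comparisons of week groups share T0 samples. The normexp alternative used median signals, since 20 outputs hold no mean signal.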

Additional observations from a re-analysis of the deposited data

Results flagged for a closer look

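In groups of 4, a sample was marked where its gap to the nearest other exceeded 0.829 of the range of the group, which chance alone gives in about 1 of 20 groups. Of 70 sets of 4 values, 5 were marked. Hk2 in T1_NPC replicate 2 read 6.23, against 7.88 for the next. Hk3 in T1 replicate 3 read 12.09, and the other samples lay between 12.65 and 12.68. Aldoc in T0 replicate 2 read 16.26, below 16.47. Eno2 in T0 replicate 4 read 15.51, above 15.38, and Ldha in T4 replicate 4 read 11.42, below 11.88.

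The change of Ldha from T0 differed between week 1 and week 2, by -1.04 (adjusted p = 0.00346, limma).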

How the results depend on the processing

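Most alternatives left the direction and the call of the members' changes as given. With scanner outputs under the samples they were deposited for, 0 members were called in any injured group against T0, for T2 against T1 and after either transplantation. There 3 pair tests against T0 had groups apart, each of the 7 isozyme pairs being counted separately in T1, T2, T4 and T8. Between T2_NPC and T2, 0 pairs stood apart. The Ldha difference between T1_NPC and T1 turned to -0.31, and Hk3 minus Hk1 between T2_NPC and T2 to 1.14. The cause was not tested. With the 12 undisputed samples alone, where T1 and T4 hold 1 sample each that is assumed to vary like the others, 5 members were called at T1, 3 at T4 and 3 between T2_NPC and T2, and 4 pairs stood apart in the last. That set holds no T1_NPC sample.

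Scaling to the 75th percentile gave 0 members called and 1 pair apart between T2_NPC and T2. It moved the median of all features by -0.18 at T1 and by 0.12 between T1_NPC and T1. Between T2_NPC and T2, normexp gave 2 members and the brightest probe 1 pair apart. Fitting only the groups compared gave 0 for T2 against T1 and for T1_NPC against T1, the random slide block (correlation 0.17) gave 0 after both transplantations, and the session block gave 2 for T2 against T1. The cause was not tested. Sign changes of differences called under neither setting were not counted.

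With the replicate block, 0 members were called after either transplantation. The numbers do not pair the samples: deviations of 12 of 36 same-numbered pairs correlated above 0.1, and 8 of 36 samples correlated best with their own number. The Ldhb call at T4 was lost under 7 settings other than leaving out samples.

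Leaving out each sample in turn gave 7 to 8 members called at T1, 8 to 9 at T2, 5 to 7 at T4, 5 at T8 and 1 from T1 to T2. It gave 0 to 1 between T1_NPC and T1 and 0 to 1 between T2_NPC and T2. Against T0, 22 to 23 pair tests had groups apart, each of the 7 pairs being counted separately in T1, T2, T4 and T8. Pairs apart numbered 0 to 2 between T1_NPC and T1 (2 without T1_NPC replicate 2, 1 without T1_NPC replicate 1 or 4). Between T2_NPC and T2 they numbered 2 to 4 (4 without T2 replicate 4).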
